A study of Mus musculus with 11 samples.

Results

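Theca and mural cell markers are 10 genes whose RNA is usually read as a sign of cells around the granulosa layer of an ovarian follicle, and they were followed here in granulosa cell preparations of the mouse. The 10 genes were a named list, matched by Entrez gene ID to mouse symbols, out of 24809 IDs that the RNA table lists and 24541 that the H3K4me3 table lists. No measured value entered their choice as a rule, although earlier results of these data were known. They are the theca hormone genes Cyp17a1 and Insl3, the contractile genes Acta2, Tagln, Myh11, Cnn1 and Des, and the pericyte and stromal genes Rgs5, Pdgfrb and Tcf21. All 10 had counts in both tables and all 10 passed the filter on low counts.

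Granulosa cells of C57BL/6 mice were collected 48 h after equine chorionic gonadotropin (eCG), a hormone with follicle-stimulating activity in mice, or from untreated mice (0 h). RNA was sequenced from 3 libraries at 48 h and 3 at 0 h, all labelled postnatal day 21 and taken by puncturing follicles. H3K4me3, a histone mark found at the starts of active genes, was measured by ChIP-seq in 2 libraries at 48 h and 2 at 0 h, for which no age is labelled. The series holds 11 samples, of which 1 input DNA library was not analysed here. No untreated mice were collected at 48 h, so eCG and the time or collection cannot be told apart. The libraries of a group are described as biological replicates, with no statement of how many mice or ovaries made up each. Puncture releases cells from follicles without sorting them, so other cells of the ovary can be present.

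A follicle is wrapped by the theca, which a basement membrane separates from the granulosa cells. The inner theca makes androgens, which granulosa cells turn into estrogen, and its outer layer holds contractile cells and fibroblasts. Capillaries and small vessels run in the theca and stop at the basement membrane. Their walls carry mural cells, a name that covers pericytes and vascular smooth muscle cells. These mural cells of vessels are not the mural granulosa cells that line a follicle. In bulk libraries such as these, fewer cells of a type and less RNA per cell cannot be told apart.

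The RNA libraries held 12013849 to 26343971 counts each and the H3K4me3 libraries 11989769 to 17968033. Levels are given as CPM, the count of a gene relative to the TMM-scaled total of its library, so that they compare 1 gene between libraries and not different genes. Genes that mark granulosa cells were high throughout, with 10 marker genes summing to 34175.0 to 34706.8 CPM in the 48 h libraries and 13684.7 to 18304.0 CPM in the 0 h libraries. Library 1 at 48 h stood apart from the other 48 h libraries. A chi-square statistic over genes was 40.8 and 24.1 per degree of freedom between it and libraries 2 and 3, against 5.41 between libraries 2 and 3 and 8.81 to 15.5 among the 0 h libraries. The RNA fold change of each marker is given with and without it. This split was set together with the gene list, with earlier results of these data known, and not from the statistic above.

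With all 3 libraries at 48 h, 1 of the 10 markers, Rgs5, rose and none fell in RNA (edgeR's quasi-likelihood test, adjusted p under 0.05 over 14401 genes). The background was 16.0% of all genes tested higher and 15.8% lower, so 1 of 10 lies near it. At an unadjusted p under 0.05, 1 marker was higher and 1, Insl3, lower, and DESeq2 called 1 higher and 0 lower. Without 48 h library 1, 1 marker rose and 4 fell: Insl3, Acta2, Myh11 and Tcf21. The background in that fit was 18.2% higher and 17.9% lower among 14816 genes. The values of 2 of the 10 markers, Insl3 and Rgs5, did not overlap between the 48 h and the 0 h libraries, against 47.8% of all genes tested.

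**Figure D1:**
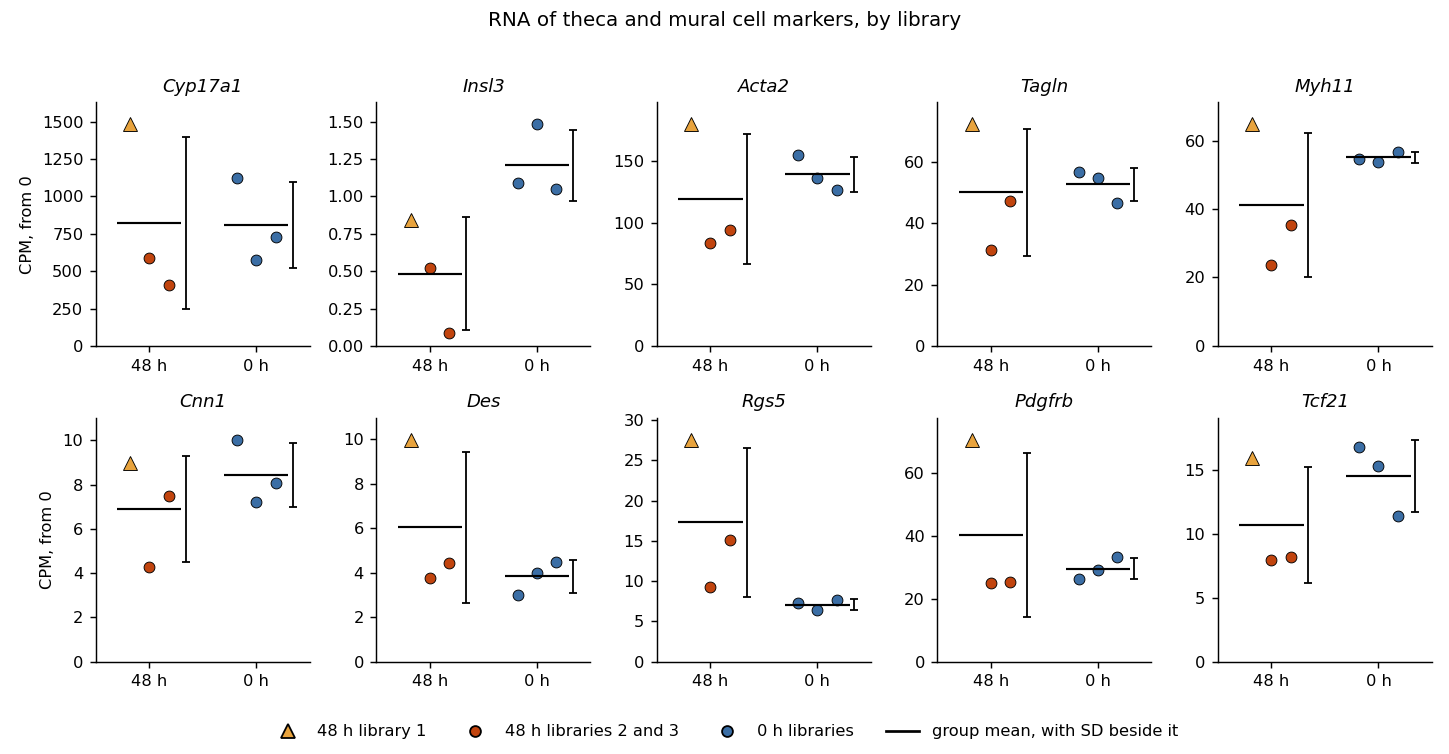
RNA levels of the 10 markers in CPM, 1 panel per gene with its own axis from 0, 48 h libraries on the left and 0 h libraries on the right. Points are libraries, the triangle is 48 h library 1, lines are group means and bars beside them the SD (n = 3 each). The triangle is the highest of the 6 values in 7 panels and the 48 h and 0 h values do not overlap for Insl3 and Rgs5.

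Cyp17a1, the theca enzyme that turns progestins into androgens, did not pass the test, and its spread among the 48 h libraries was wider than the difference of the means. Cyp17a1 (gene ID 13074, chromosome 19, 46667165 to 46673000 in GRCm38) had 1480.6, 586.2 and 407.4 CPM in 48 h libraries 1 to 3, against 1124.9, 572.8 and 726.1 CPM in 0 h libraries 1 to 3. The highest value of either group was in 48 h library 1 and the lowest in 48 h library 3, so the groups overlapped. The means were 824.8 ± 575.0 CPM at 48 h and 807.9 ± 285.0 CPM at 0 h (SD, n = 3 each). The log2 fold change was 0.03 ± 0.44 (SE; edgeR adjusted p = 0.967), and -0.70 ± 0.27 without 48 h library 1 (adjusted p = 0.0819). Its sign depended on the libraries kept and on the scaling, as given in the closing section.

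Insl3 encodes a small relaxin-like hormone that theca cells of growing follicles secrete, and it was near the floor of detection in these preparations. Insl3 (gene ID 16336, chromosome 8, 71689252 to 71690577) had counts of 11, 13 and 1 in 48 h libraries 1 to 3, against 17, 30 and 20 in 0 h libraries 1 to 3. In CPM these were 0.843, 0.52 and 0.087 at 48 h, against 1.09, 1.48 and 1.05 at 0 h. Each 48 h value lay under each 0 h value. The log2 fold change was -1.28 ± 0.52 (edgeR adjusted p = 0.0926), which did not pass the threshold. Without 48 h library 1 it was -1.75 ± 0.56 and passed (adjusted p = 0.043). The fold rests on few counts and depends on how the lowest is treated, and the gene overlaps Jak3 in the annotation, so reads of the overlap may be shared with it.

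Genes that serve or regulate androgen synthesis moved in both directions at 48 h. Of those that act on the steroid itself or its precursor, Star, Cyp11a1 and Hsd3b1 rose and Hsd17b3, the enzyme that forms testosterone, fell, while Hsd3b6, Cyb5a and Por did not pass (adjusted p = 0.764, 0.996 and 0.105). Hsd17b3 was low, with 0.69, 0.72 and 0.696 CPM at 48 h, against 1.41, 1.68 and 1.63 CPM at 0 h (log2 fold change -1.16 ± 0.29, edgeR adjusted p = 0.0157, and up to 0.0635 over the alternatives). Gli1 and Ptch1 of the Hedgehog pathway, through which granulosa cells signal to theca cells, fell. The list of 18 genes was fixed with earlier results known and includes genes that granulosa cells also use. Of these 18, 8 rose, 4 fell and 6 did not pass, against 16.0% of all genes tested higher and 15.8% lower. The median log2 fold change was 0.43, against -0.03 over all genes tested. The counts stayed 8 and 4 without 48 h library 1, but the 4 falls became 1 without 0 h library 2, without 0 h library 3 or without 48 h library 2, and 0 without 48 h library 3.

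Cyp11a1, which cuts the side chain of cholesterol, had 4395.5, 2415.4 and 2855.9 CPM in the 48 h libraries, against 1063.5, 621.8 and 836.4 CPM in the 0 h libraries (log2 fold change 1.94 ± 0.26, edgeR adjusted p = 0.0012). Hsd3b1, which converts pregnenolone to progesterone, had 6980.7, 7098.0 and 6980.8 CPM at 48 h, against 3444.3, 2426.3 and 2544.3 CPM at 0 h (1.32 ± 0.15, adjusted p = 0.000681). Lhcgr, the receptor for luteinizing hormone, rose most in the list, by 3.73 ± 0.30 on the log2 scale (adjusted p = 0.000179). For these genes each 48 h library was above each 0 h library, with library 1 in or close to the range of the others for Hsd3b1 and above it for Cyp11a1 and Lhcgr. Aldh1a1, which makes retinoic acid and is high in theca cells, had 781.5, 779.7 and 852.8 CPM at 48 h, against 806.6, 502.0 and 587.2 CPM at 0 h (0.35 ± 0.17, adjusted p = 0.141), and overlapped. Gli1, the transcription factor that Hedgehog signalling induces, had 4.67, 1.76 and 2.35 CPM at 48 h, against 7.0, 9.13 and 8.44 CPM at 0 h. It had the largest fall of the list, -1.52 ± 0.34 (adjusted p = 0.01) and -2.03 ± 0.24 without 48 h library 1 (adjusted p = 0.000814). With the alternatives its adjusted p ran from 0.000399 to 0.051, the last without 48 h library 3. Whether Cyp17a1 differed in its fold change from these genes was not tested.

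For the contractile genes Acta2 and Myh11, 48 h library 1 lay above and 48 h libraries 2 and 3 below all 0 h libraries, an order that the other contractile markers did not follow in full. None of the 5 passed the test with all libraries, and Acta2 and Myh11 fell when 48 h library 1 was left out. Acta2 encodes the actin of smooth muscle, which outer theca cells and vessel walls share. Acta2 (gene ID 11475, chromosome 19, 34240336 to 34255585) had 179.9, 83.3 and 94.1 CPM in 48 h libraries 1 to 3, against 155.0, 136.7 and 126.5 CPM in the 0 h libraries. Library 1 was above every 0 h library and libraries 2 and 3 were below every 0 h library. Its log2 fold change was -0.23 ± 0.26 (edgeR adjusted p = 0.528), and -0.66 ± 0.10 without 48 h library 1 (adjusted p = 0.00255).

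Myh11, the myosin heavy chain of smooth muscle, had the same order. Myh11 (gene ID 17880, chromosome 16, 14194527 to 14292188) had 64.7, 23.7 and 35.2 CPM at 48 h, against 54.7, 53.8 and 56.8 CPM at 0 h. The 0 h libraries were close together, with an SD of 1.53 CPM against 21.1 CPM at 48 h. Its log2 fold change was -0.43 ± 0.30 (edgeR adjusted p = 0.296), and -0.93 ± 0.15 without 48 h library 1 (adjusted p = 0.00271).

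The actin-binding proteins Tagln (transgelin) and Cnn1 (calponin) did not pass in either fit. Tagln (gene ID 21345, chromosome 9, 45929628 to 45936058) had 72.3, 31.2 and 47.2 CPM at 48 h, against 56.9, 54.9 and 46.7 CPM at 0 h. The highest and the lowest of the 6 values were both at 48 h, and the log2 fold change was -0.08 ± 0.25 (edgeR adjusted p = 0.834; -0.45 ± 0.17 and 0.0711 without 48 h library 1). Tagln overlaps Pcsk7 in the annotation, and reads of the overlap may be shared. Cnn1 (gene ID 12797, chromosome 9, 22099221 to 22109221) had 8.96, 4.28 and 7.48 CPM at 48 h, against 10, 7.21 and 8.07 CPM at 0 h. These values overlapped too, with a log2 fold change of -0.31 ± 0.27 (adjusted p = 0.423; -0.56 ± 0.26 and 0.137 without 48 h library 1).

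Des, the intermediate filament protein of muscle cells and pericytes, differed from the other contractile genes in the order of its libraries. Des (gene ID 13346, chromosome 1, 75360292 to 75368579) had 9.96, 3.76 and 4.44 CPM at 48 h, against 3.02, 4.0 and 4.48 CPM at 0 h. Library 1 at 48 h was high and the other 5 libraries lay together. The log2 fold change was 0.64 ± 0.37 (edgeR adjusted p = 0.218), and 0.08 ± 0.25 without 48 h library 1 (adjusted p = 0.829).

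The promoter of Acta2 is shown because many smooth muscle genes are switched on through CArG boxes, the sites of serum response factor (SRF), and because Acta2 also differed in H3K4me3. Promoters of 6 of the 10 markers were taken from a RefSeq table of GRCm38.p6 and searched: Acta2, Cnn1, Des, Insl3, Rgs5 and Tcf21. Of the other markers, Pdgfrb was left out of the search, and Cyp17a1, Tagln and Myh11 had no promoter of the length used. None of the 6 held a full CArG box on either strand, against 1.63% of 32851 promoters of the same length. A looser rule, added after the data were seen, kept CC and GG and allowed at most 1 C or G among the 6 bases between them. Under it Acta2 alone of the 6 held the motif, against 9.98% of all promoters. The NR5A motif AAGGTCA, read by steroidogenic regulators, was found in 0 of the 6 and in 4.72% of all promoters. The E box CANNTG, the kind of site that basic helix-loop-helix factors such as Tcf21 bind, was in 5 of the 6 and in 72.3% of all. The window searched runs from 250 bases before the start to a short way past it, and the only E box of Rgs5 lies 27 bases after its start. Both strands were searched, and a match says only that these letters are in this window. The 250 bases before the start used in that table are printed on the gene's own strand (chr19:34255374-34255623, minus strand), with the near-CArG matches in capitals. They begin 84 and 34 bases before that start. The start lies inside the gene span given above, which ends at 34255585 on this strand's upstream side, so both matches lie within the annotated gene.
Acta2: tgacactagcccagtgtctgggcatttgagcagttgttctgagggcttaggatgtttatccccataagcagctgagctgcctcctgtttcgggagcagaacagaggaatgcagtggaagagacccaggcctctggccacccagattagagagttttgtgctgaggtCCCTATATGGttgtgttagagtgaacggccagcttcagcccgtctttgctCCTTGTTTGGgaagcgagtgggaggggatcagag

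Other genes of the contractile programme, Tpm1 and Cald1 among them, fell at 48 h. Of 19 further genes, 2 rose, 8 fell and 9 did not pass, against 16.0% of all genes tested higher and 15.8% lower. The median log2 fold change was -0.46, against -0.03 over all genes tested. Without 48 h library 1, 2 rose and 11 fell. The 8 falls became 5 without 48 h library 2 and 4 without 48 h library 3, and the 2 rises became 1 without any of the 0 h libraries or without 48 h library 2 or 3. Their summed level was 2185.8, 1841.6 and 1908.4 CPM in the 48 h libraries, against 2385.3 to 2804.2 CPM in the 0 h libraries, so that the groups did not overlap. Many of these genes are used by granulosa cells as well.

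Tpm1, a tropomyosin that lies along actin filaments, had the largest fall of the list, with 153.2, 118.7 and 133.8 CPM at 48 h, against 235.9, 273.9 and 276.2 CPM at 0 h (log2 fold change -0.96 ± 0.12, edgeR adjusted p = 0.000865). Cald1, which binds actin and tropomyosin, had 106.2, 81.4 and 90.2 CPM at 48 h, against 156.4, 166.4 and 144.0 CPM at 0 h (-0.75 ± 0.11, adjusted p = 0.0019). Flna, the actin crosslinker filamin A, fell by 0.47 on the log2 scale (SE 0.12, adjusted p = 0.0181, and up to 0.0903 without 0 h library 2 or 3 or 48 h library 2 or 3, where the call was lost). For Tpm1, Cald1 and Flna all 48 h libraries lay under all 0 h libraries. Oxtr, the oxytocin receptor, rose, with 234.0, 82.0 and 112.6 CPM at 48 h, against 27.9, 21.7 and 29.2 CPM at 0 h (2.44 ± 0.35, adjusted p = 0.00164). Srf and its muscle coactivator Myocd are named here after their values were seen. Srf had 57.7, 60.0 and 61.6 CPM at 48 h, against 85.3, 81.9 and 87.3 CPM at 0 h (-0.51 ± 0.07, adjusted p = 0.00166). Myocd had 11.7, 11.4 and 12.8 CPM at 48 h, against 25.4, 20.2 and 19.6 CPM at 0 h (-0.86 ± 0.13, adjusted p = 0.00223, range 9.22e-06 to 0.012 over the alternatives). In Srf and Myocd 48 h library 1 lay with the other 48 h libraries, unlike in Acta2 and Myh11. Mrtfa and Mrtfb, further SRF coactivators on the list, did not pass (-0.27 ± 0.09, adjusted p = 0.0568, and -0.18 ± 0.11, adjusted p = 0.255).

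The pericyte gene Rgs5 was the marker that rose. Rgs5 encodes a protein that shortens G protein signals and is a standard marker of pericytes. Rgs5 (gene ID 19737, chromosome 1, 169655501 to 169695813) had 27.5, 9.28 and 15.1 CPM in 48 h libraries 1 to 3, against 7.26, 6.37 and 7.64 CPM in the 0 h libraries. Each 48 h library was above each 0 h library, and library 1 was the highest. The means were 17.3 ± 9.32 CPM at 48 h and 7.09 ± 0.656 CPM at 0 h (SD, n = 3 each). The log2 fold change was 1.27 ± 0.35 (edgeR adjusted p = 0.0234), and 0.75 ± 0.22 without 48 h library 1 (adjusted p = 0.0291). The call was lost without 0 h library 1, 2 or 3, where the adjusted p was 0.0611, 0.072 and 0.0627, with log2 fold changes of 1.29, 1.21 and 1.34.

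The promoter of Rgs5 is shown because it was the only marker whose RNA passed the test with all libraries. The 250 bases before its start in the RefSeq table (GRCm38.p6, chr1:169655251-169655500, plus strand) hold the reverse complement of the GATA motif AGATAA, in capitals, whose first base is 238 bases before the start. This motif was found in 2 of the 6 marker promoters, those of Rgs5 and Tcf21, and in 11.2% of all promoters.
Rgs5: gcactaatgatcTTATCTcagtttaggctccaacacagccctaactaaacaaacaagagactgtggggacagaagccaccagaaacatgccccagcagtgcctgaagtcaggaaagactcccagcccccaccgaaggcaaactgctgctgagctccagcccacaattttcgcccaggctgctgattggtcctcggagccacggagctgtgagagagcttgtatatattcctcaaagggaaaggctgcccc

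Pdgfrb, the receptor through which platelet-derived growth factor recruits pericytes, did not pass in either fit. Pdgfrb (gene ID 18596, chromosome 18, 61045127 to 61085067) had 70.3, 25.1 and 25.2 CPM at 48 h, against 26.4, 29.1 and 33.2 CPM at 0 h. Library 1 at 48 h stood above all others, and libraries 2 and 3 were just under the lowest 0 h library. The log2 fold change was 0.43 ± 0.36 (edgeR adjusted p = 0.394), and -0.24 ± 0.11 without 48 h library 1 (adjusted p = 0.13), so its sign rested on that library. Tcf21, a transcription factor of ovarian and other stromal progenitors, fell only when library 1 was left out. Tcf21 (gene ID 21412, chromosome 10, 22817263 to 22820143) had 15.9, 7.92 and 8.18 CPM at 48 h, against 16.8, 15.3 and 11.4 CPM at 0 h. Libraries 2 and 3 at 48 h were below all 0 h libraries, and library 1 was within their range. The log2 fold change was -0.45 ± 0.28 (adjusted p = 0.239), and -0.85 ± 0.19 without 48 h library 1 (adjusted p = 0.0103).

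**Figure D2:**
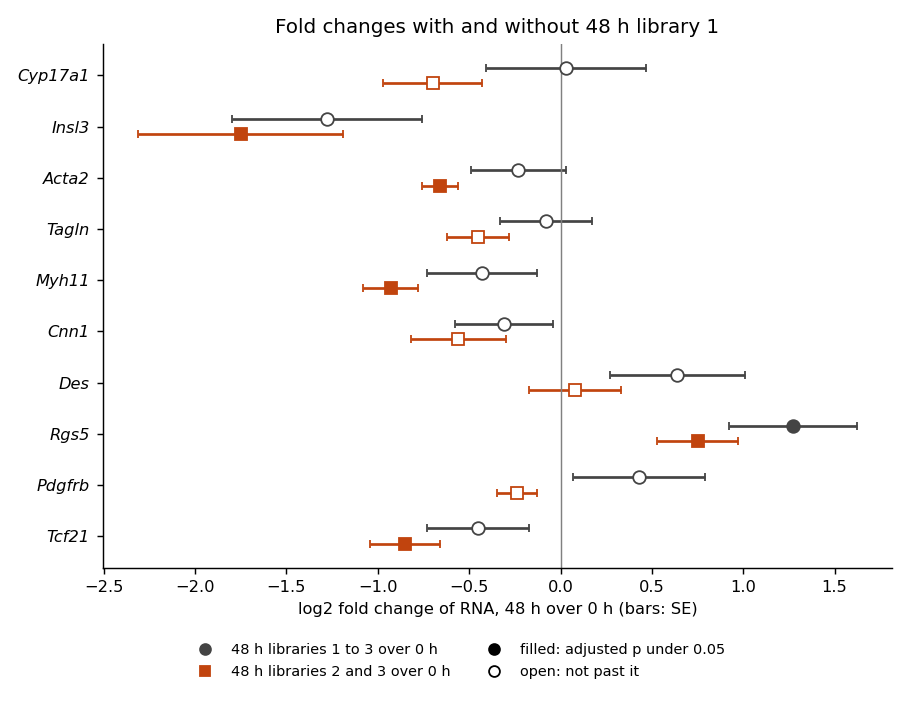
Log2 fold changes of RNA, 48 h over 0 h, for the 10 markers with all libraries (circles) and without 48 h library 1 (squares), bars giving the SE. Filled symbols passed edgeR's test at an adjusted p under 0.05, which with all libraries is Rgs5 (1.27) and without library 1 is Insl3, Acta2, Myh11, Rgs5 and Tcf21.

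Several further pericyte genes rose at 48 h: Notch3, Mcam, Abcc9, Ndufa4l2 and Cox4i2. They differed in the order of the 48 h libraries. On the log2 scale, library 1 minus the mean of libraries 2 and 3 was 1.51, 1.55 and 1.85 for Notch3, Mcam and Abcc9. It was -0.61 and -0.59 for Ndufa4l2 and Cox4i2. Which cells carried the RNA of these 5 genes was not tested. Of 12 pericyte genes beside the markers, 11 passed the filter on low counts. Of these 11, 5 rose, 0 fell and 6 did not pass, against 16.0% of all genes tested higher and 15.8% lower. The median log2 fold change was 0.86, and 0.43 without 48 h library 1, where 4 rose and 1 fell. The 5 rises became 2 without 0 h library 1 or 2 and 3 without 0 h library 3. Their summed level was 396.5, 197.7 and 220.7 CPM in the 48 h libraries, against 145.8 to 182.5 CPM in the 0 h libraries.

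Ndufa4l2, a mitochondrial protein high in pericytes, had the largest rise, with 6.28, 9.12 and 10.1 CPM at 48 h, against 2.89, 0.938 and 1.37 CPM at 0 h (log2 fold change 2.32 ± 0.39, edgeR adjusted p = 0.00293). Library 1 was the lowest of the 48 h libraries there. Mcam, an adhesion molecule of pericytes and endothelium, had 119.3, 36.1 and 45.9 CPM at 48 h, against 21.9, 26.4 and 35.8 CPM at 0 h (1.25 ± 0.41, adjusted p = 0.0471), and did not pass without 48 h library 1 (0.53 ± 0.19, adjusted p = 0.0658), nor without 48 h library 3 or any 0 h library (up to 0.134). Gucy1a1, a subunit of the nitric oxide receptor, had 36.6, 36.3 and 35.7 CPM at 48 h, against 30.1, 36.9 and 38.8 CPM at 0 h, and overlapped (0.04 ± 0.11, adjusted p = 0.828). Anpep, a cell surface peptidase, had 44.7, 23.7 and 23.1 CPM at 48 h, against 27.6, 42.8 and 38.2 CPM at 0 h (-0.26 ± 0.26, adjusted p = 0.487), and -0.63 ± 0.18 without 48 h library 1 (adjusted p = 0.027).

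Fibroblast and stromal matrix genes were higher in 48 h library 1 than in any other library. Of 12 such genes, 5 rose, 0 fell and 7 did not pass, against 16.0% of all genes tested higher and 15.8% lower. The median log2 fold change was 0.76, and 0.42 without 48 h library 1, where again 5 rose. The 5 rises became 2 without any 1 of the 0 h libraries. Their summed level was 5004.9, 1993.9 and 2300.8 CPM in the 48 h libraries, against 1722.8 to 2211.5 CPM in the 0 h libraries. All 12 had their highest value in 48 h library 1. Col1a2, a chain of type I collagen, had 1373.8, 516.4 and 594.4 CPM at 48 h, against 543.7, 536.5 and 677.0 CPM at 0 h (log2 fold change 0.50 ± 0.33, edgeR adjusted p = 0.279). Col3a1 and Col1a1, of types III and I, did not pass either (0.73 ± 0.33, adjusted p = 0.119, and 0.72 ± 0.31, adjusted p = 0.111). Postn, a matrix protein of fibroblasts, rose most, with 42.1, 8.4 and 13.8 CPM at 48 h, against 6.30, 4.98 and 7.06 CPM at 0 h (1.79 ± 0.53, adjusted p = 0.031, and up to 0.0935 without any 1 of the 0 h libraries, where the call was lost).

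Of 7 genes for ligands and receptors of PDGF and INSL3 signalling, 5 passed the filter on low counts, of which 1 rose, 1 fell and 3 did not pass, close to the background of 16.0% higher and 15.8% lower. Pdgfd, a ligand of the PDGF receptor beta, had 50.6, 46.9 and 45.4 CPM at 48 h, against 25.9, 20.1 and 23.6 CPM at 0 h (log2 fold change 1.04 ± 0.11, edgeR adjusted p = 0.000476). Pdgfb, the ligand that draws pericytes to endothelium, had 42.9, 23.5 and 30.0 CPM at 48 h, against 66.0, 41.2 and 55.2 CPM at 0 h, and fell (-0.76 ± 0.23, adjusted p = 0.0355) although the groups overlapped. Over the alternatives its adjusted p was 0.00436 to 0.124, and the call was lost without 0 h library 1 or 3 and without 48 h library 2 or 3. Pdgfc and the receptor Pdgfra did not pass (-0.33 ± 0.17, adjusted p = 0.183, and 0.40 ± 0.36, adjusted p = 0.429). The receptors Rxfp1 and Rxfp2 stayed at or under 0.321 CPM in every library, and Rxfp2 is the receptor of the Insl3 hormone.

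Library 1 at 48 h was above the other 48 h libraries for all 10 markers. Its log2 level minus the mean of libraries 2 and 3 was 1.60 for Cyp17a1, 1.02 for Acta2, 0.91 for Tagln, 1.16 for Myh11 and 0.66 for Cnn1. It was 1.28 for Des, 1.22 for Rgs5, 1.48 for Pdgfrb and 0.98 for Tcf21, and 1.79 for Insl3, whose value in library 3 rests on 1 count. The median of the 10 was 1.19, against 0.00 over all 14401 genes tested, of which the middle 90 percent lay between -0.41 and 1.02. The difference was at least 1 in 7 of the 10 markers, against 5.21% of all genes tested. Library 1 held the highest of all 6 values in 7 of the 10, the exceptions being Insl3, Cnn1 and Tcf21, against 22.1% of all genes tested. This is a description of 3 libraries, with no test, on a split that was set with earlier results known.

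Relative to the mean of the 0 h libraries, 48 h library 1 was higher by 0.93 on the log2 scale for Cyp17a1, 1.39 for Des, 1.96 for Rgs5 and 1.25 for Pdgfrb. It was 0.10 to 0.46 above the 0 h mean for Cnn1, Tcf21, Myh11, Acta2 and Tagln, and at -0.49 for Insl3. Libraries 2 and 3 together lay below the 0 h mean for 8 of the 10 markers and above it for Des (0.11) and Rgs5 (0.74).

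Markers of other cells moved with library 1. Endothelial genes had a median of 1.53 for library 1 minus libraries 2 and 3 on the log2 scale, stromal genes 1.23, oocyte genes 1.43 and other pericyte genes 0.94. Their medians were 0.77 for red blood cell genes, 0.62 for immune genes and 0.60 for surface epithelium genes, and -0.16 for granulosa cell genes. All 12 endothelial genes had their highest value in library 1, and their summed level was 660.2, 215.7 and 262.3 CPM in the 48 h libraries, against 116.6 to 124.0 CPM in the 0 h libraries. Of the 12, 10 rose at 48 h with all libraries and 10 without library 1, against 16.0% and 18.2% of all genes tested. Their median log2 fold changes were 1.72 and 0.98, and 6, 6 and 7 rose without 0 h library 1, 2 or 3. Cdh5, the cadherin of endothelial junctions, had 181.7, 67.1 and 72.8 CPM at 48 h, against 31.4, 27.8 and 30.3 CPM at 0 h (log2 fold change 1.84 ± 0.35, edgeR adjusted p = 0.00512). Pecam1, an adhesion molecule of endothelium, and Kdr, a receptor of VEGF, also rose (2.05 ± 0.43, adjusted p = 0.00763, and 1.53 ± 0.46, adjusted p = 0.0346). The call of Kdr was lost without any of the 0 h libraries (adjusted p up to 0.097). Oocyte genes summed to 96.0, 36.7 and 37.3 CPM at 48 h, against 89.7 to 101.7 CPM at 0 h. No gene of these lists was at 0 in every library except the 4 globins of the red blood cell list. The part of endothelial, stromal and oocyte RNA in the values of the markers was not tested.

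**Figure D3:**
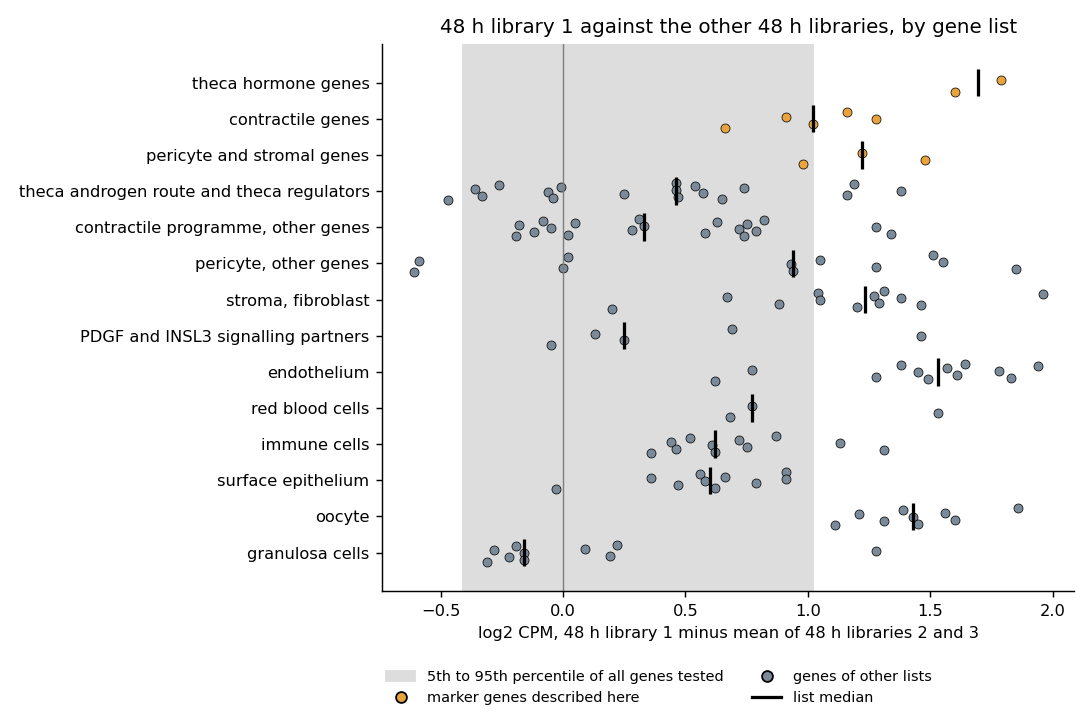
Log2 CPM of 48 h library 1 minus the mean of 48 h libraries 2 and 3, 1 point per gene and 1 line per gene list, with the list median as a bar and the 5th to 95th percentile of all genes tested shaded (-0.41 to 1.02). The markers described here (median 1.19) lie to the right with endothelial (1.53), stromal (1.23) and oocyte genes (1.43), while granulosa cell genes have a median of -0.16, with Amh at 1.28.

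Counts of each marker per 100 Acta2 counts of the same library set the genes against each other within a library. This quantity was chosen after the values were seen, and it has no test. Tagln and Myh11 kept near the same ratio in both groups. Tagln had 40.2, 37.5 and 50.1 counts per 100 Acta2 counts at 48 h, against 36.7, 40.2 and 36.9 at 0 h, and Myh11 had 35.9, 28.5 and 37.4 at 48 h, against 35.3, 39.4 and 44.9 at 0 h. On this scale 48 h library 1 lay within the range of the other libraries for both genes.

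Rgs5, Pdgfrb and Des were higher relative to Acta2 in every 48 h library than in any 0 h library. Rgs5 had 15.3, 11.1 and 16.0 counts per 100 Acta2 counts at 48 h, against 4.68, 4.66 and 6.04 at 0 h. Pdgfrb had 39.1, 30.1 and 26.8 at 48 h, against 17.0, 21.3 and 26.2 at 0 h, so the nearest values were close. Des had 5.54, 4.51 and 4.72 at 48 h, against 1.95, 2.93 and 3.54 at 0 h. Insl3 was lower in every 48 h library, with 0.468, 0.624 and 0.0925 against 0.705, 1.08 and 0.834 at 0 h. The ratio did not overlap between the groups for these 4 of 9 markers, against 18.9% of all genes tested. Cyp17a1, Cnn1, Tagln, Myh11 and Tcf21 overlapped. A ratio to Acta2 shows unequal change of 2 genes and not which of them changed.

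**Figure D4:**
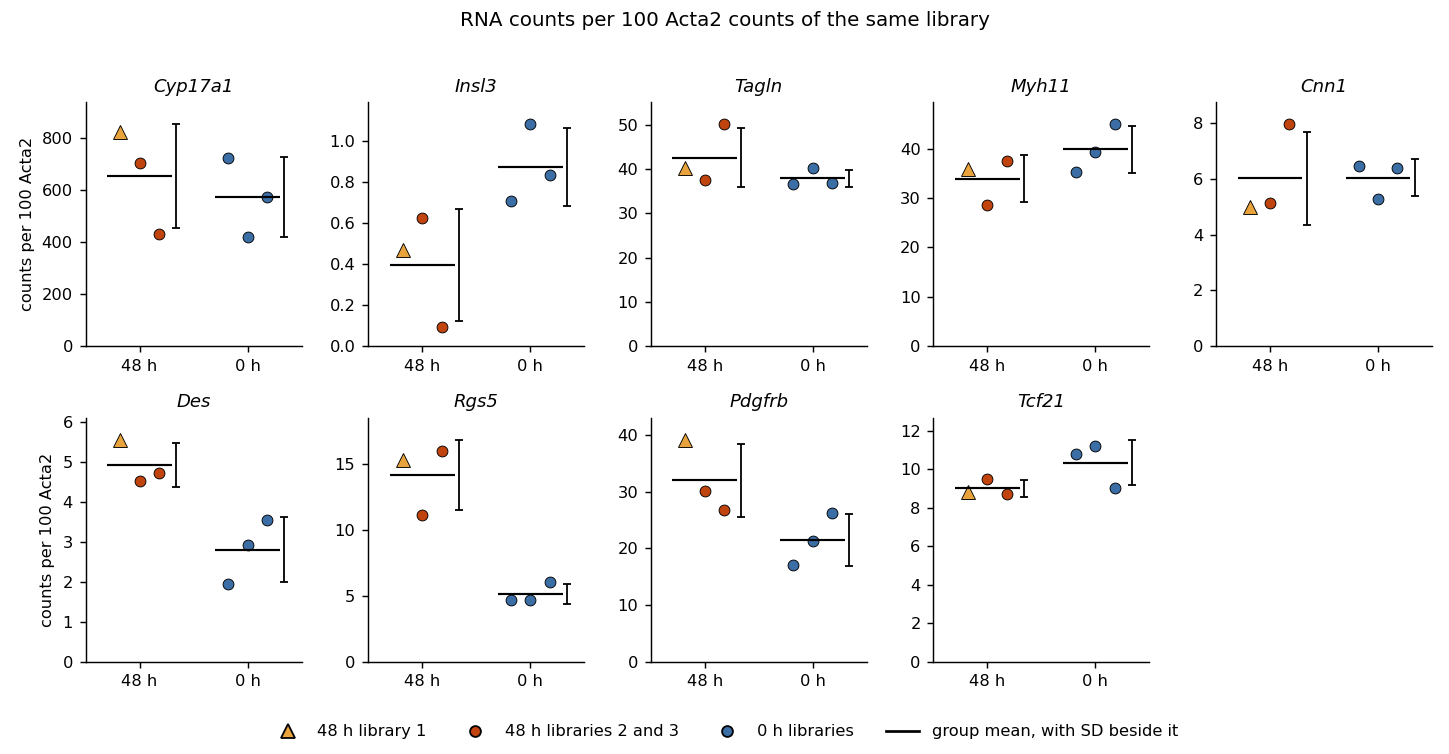
RNA counts of 9 markers per 100 Acta2 counts of the same library, 48 h libraries on the left and 0 h libraries on the right, with axes from 0, group means as lines and the SD as bars (n = 3 each). Rgs5 lies at 11.1 to 16.0 in the 48 h libraries, above the 4.66 to 6.04 of the 0 h libraries, while Tagln and Myh11 overlap and 48 h library 1 (triangle) no longer stands apart for them.

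Genes with the most similar profiles over the 6 RNA libraries were sought among 11283 other genes that averaged 5 CPM or more, by the root mean square difference of centred log2 CPM from the median profile of each marker group. For the contractile markers the nearest were Sema6a (0.0967), Tpm2 (0.0988), Cygb (0.111), Cyria (0.121) and Hic1 (0.122). Among the markers themselves this difference was 0.0569 for Tagln, 0.14 for Acta2, 0.161 for Cnn1, 0.207 for Myh11 and 0.474 for Des, so Des was the least like its group. For the pericyte and stromal markers the nearest were Adgra2 (0.0978), Susd2 (0.104), Col1a2 (0.116), Olfml2a (0.12) and Ephx1 (0.121). Pdgfrb was 0.0468 from that median profile, whereas Rgs5 and Tcf21 were 0.482 and 0.493 from it. For Cyp17a1 and Insl3, which were each 0.504 from their own median, the nearest were Padi6 (0.359), Nlrp14 (0.365), Gdf9 (0.381), Chrm4 (0.384) and Nlrp5 (0.384), of which Gdf9 and Nlrp5 are on the oocyte list. These names depend on 48 h library 1. Over the other 5 libraries, a comparison added after the data were seen, Tpm2 and Cyria were again among the 5 nearest of the contractile markers, and the other groups shared 0 of their 5 nearest genes.

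H3K4me3 at the markers was low in all 4 libraries. The mean over libraries ran from 2.07 CPM for Rgs5 to 10.9 CPM for Acta2, and the median of all 24541 gene IDs was 18.9 CPM. Among 5129 genes with no RNA count in any library the median was 1.56 CPM and the 95th percentile 17.5 CPM, and 0 of the 10 markers exceeded that percentile. In contrast, 90.7% of the 11286 genes with at least 5 CPM of RNA exceeded it. Insl3 and Des, with mean RNA of 0.846 and 4.94 CPM, are not in that class. Some granulosa cell genes of that class were low too. Mean H3K4me3 at 48 h and 0 h was 1.02 and 1.44 CPM for Cyp19a1 and 1.87 and 2.24 CPM for Nr5a2. Others were high, such as Foxl2 with 369.7 and 289.2 CPM. At the 90th percentile, 4.37 CPM, 6 of the 10 markers were above: Acta2, Myh11, Tcf21, Cyp17a1, Pdgfrb and Des. The window counted for each gene is not given in the sources used here, so these levels are not per length.

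H3K4me3 fell at Cyp17a1 and Acta2 and passed the test at none of the other 8 markers. With 2 of 10 lower and 0 higher (edgeR adjusted p under 0.05 over 24476 genes), the background was 2.08% of all genes tested lower and 6.35% higher. At an unadjusted p under 0.05, 0 markers were higher and 3 lower, and DESeq2 called 0 higher and 1 lower. The values did not overlap between the groups for 5 of the 10 markers, Cyp17a1, Acta2, Tagln, Des and Tcf21, against 49.3% of all genes tested. Each value comes from 26 to 210 counts, so counting error alone is a sizeable part of the spread.

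Cyp17a1 had 5.58 and 7.30 CPM of H3K4me3 in the 48 h libraries, against 11.1 and 11.1 CPM in the 0 h libraries (log2 fold change -0.79 ± 0.17, edgeR adjusted p = 0.00182). The call was lost without 0 h library 1 (adjusted p = 0.189), at a log2 fold change of -0.81. Acta2 had 9.12 and 8.76 CPM at 48 h, against 13.4 and 12.4 CPM at 0 h (-0.53 ± 0.15, adjusted p = 0.0162). Its adjusted p was 0.0956 with DESeq2, 0.433 without 0 h library 1 and 0.0515 without 0 h library 2. At both genes each 48 h library was below each 0 h library, by a margin larger than the gap within either group. In RNA neither gene passed with all libraries, and the H3K4me3 libraries are separate samples from the RNA libraries.

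The other contractile genes had H3K4me3 values close to or under those of 0 h. Tagln had 2.88 and 3.20 CPM at 48 h, against 4.09 and 4.49 CPM at 0 h (log2 fold change -0.49 ± 0.25, edgeR adjusted p = 0.265). Myh11 had 9.30 and 10.3 CPM at 48 h, against 9.91 and 10.6 CPM at 0 h, and Cnn1 had 3.18 and 2.41 CPM at 48 h, against 2.75 and 3.99 CPM at 0 h. Myh11 and Cnn1 overlapped between groups, with adjusted p = 0.879 and 0.677. Des had 4.38 and 5.28 CPM at 48 h, against 4.22 and 3.74 CPM at 0 h, the 1 contractile marker with both 48 h libraries above (0.27 ± 0.24, adjusted p = 0.561).

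Of the pericyte and stromal markers, Rgs5 had the lowest H3K4me3, with 1.56 and 2.30 CPM at 48 h, against 1.92 and 2.49 CPM at 0 h (log2 fold change -0.17 ± 0.32, edgeR adjusted p = 0.826). Its rise in RNA thus had no counterpart that passed in H3K4me3. Pdgfrb had 8.04 and 9.37 CPM at 48 h, against 7.93 and 8.98 CPM at 0 h (0.05 ± 0.17, adjusted p = 0.91). Tcf21 had 9.0 and 6.74 CPM at 48 h, against 9.08 and 11.4 CPM at 0 h (-0.37 ± 0.18, adjusted p = 0.212). Insl3 had 3.18 and 4.49 CPM at 48 h, against 4.35 and 4.65 CPM at 0 h (-0.22 ± 0.24, adjusted p = 0.671).

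**Figure D5:**
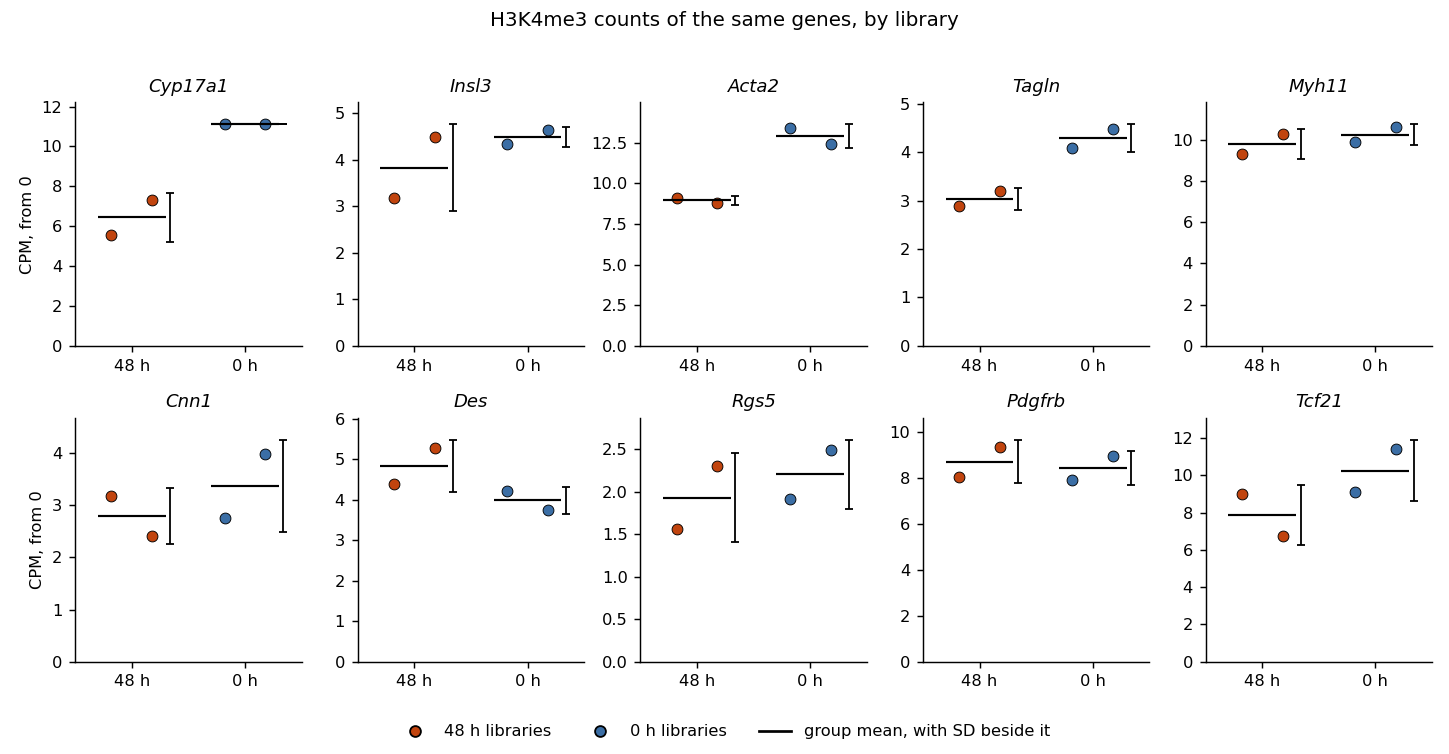
H3K4me3 levels of the 10 markers in CPM, 1 panel per gene with its own axis from 0, 48 h libraries on the left and 0 h libraries on the right, with group means as lines and the SD as bars (n = 2 each). The 48 h values of Cyp17a1 (5.58 and 7.30) and Acta2 (9.12 and 8.76) lie below their 0 h values, and the values overlap in 5 of the 10 panels.

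Among related genes, H3K4me3 rose at Lhcgr and 5 others of the androgen list, fell at 4 contractile genes and passed at none of the endothelial genes. In the androgen list 6 of 18 genes rose and 0 fell, and Lhcgr had 61.7 and 76.3 CPM at 48 h, against 23.9 and 15.2 CPM at 0 h (log2 fold change 1.79 ± 0.11, edgeR adjusted p = 3.66e-17). In the contractile list 1 of 19 rose, Oxtr, and 4 fell, Tpm1, Cald1, Ptger3 and Myocd. Myocd had 30.2 and 29.8 CPM at 48 h, against 45.9 and 45.4 CPM at 0 h (-0.61 ± 0.08, adjusted p = 3.78e-07, at most 0.0101 over the alternatives). Srf, Mrtfa and Mrtfb did not pass (0.11 ± 0.07, 0.13 ± 0.07 and 0.22 ± 0.07, adjusted p = 0.42, 0.339 and 0.0513). Cald1 had 30.5 and 31.1 CPM at 48 h, against 50.4 and 56.9 CPM at 0 h (-0.79 ± 0.08, adjusted p = 6.48e-10). None of the 12 endothelial genes passed, with summed levels of 81.1 and 82.2 CPM at 48 h, against 85.3 and 73.5 CPM at 0 h. Among 12 pericyte genes 1, Cox4i2, rose (0.96 ± 0.17, adjusted p = 9.25e-05) and 0 fell, and among 12 stromal genes 1 rose and 2 fell. The background was 6.35% of all genes tested higher and 2.08% lower, so 1 of 12 and 1 of 19 higher lie near it. Without 0 h library 1 the androgen list had 3 rises and the stromal list 0 rises and 0 falls, and without 48 h library 2 the contractile list had 3 rises and the stromal list 4 falls.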

How the data were processed

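Both tables were deposited by the authors as raw counts per Entrez gene ID: the values are whole and their totals vary by library. The RNA columns name their samples. The H3K4me3 columns name a time point, and the number ending each name served only to tell libraries apart, to leave them out and to form blocks. The submitters' processing notes list, for RNA, STAR, kallisto, sleuth, Picard and FastQC 0.11.5. For ChIP-seq they list MACS2 2.2, ChIPseeker 1.18.0, Bowtie2 2.2.9 and Trimmomatic. The build was mm10. Neither the counting program nor its strand setting nor the H3K4me3 window was found in the sources read. Without strand, reads of overlapping genes may be shared.

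Symbols came from a RefSeq gene table of GRCm38.p6, which held 24742 of the 24809 RNA IDs and 24472 of the 24541 H3K4me3 IDs. The comparison of 48 h with 0 h used edgeR 4.0.16 in R 4.3.3 within each assay: the quasi-likelihood test on raw counts filtered by filterByExpr and scaled by TMM, with p-values adjusted by Benjamini-Hochberg over every gene tested. Calls needed an adjusted p under 0.05. Log2 CPM used a prior count of 0.5, and the SE was derived from the test statistic. Alternatives were other scalings, DESeq2 1.42.0, other filters, a replicate block and leaving out each library. The procedure was tested on simulated counts. No 2 libraries of a group agreed within sampling noise, so each was counted once. P-values set the difference of 48 h and 0 h against an estimate of the spread between these libraries, which may be technical in part.

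The markers and the gene lists were chosen with earlier results of these data known. Named genes were the markers, and from each list the 3 with the highest mean RNA level and the called genes with the largest rise and the largest fall, of which 1 is not reported here. The sequences of the actin and transgelin families were not compared.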

Additional observations from a re-analysis of the deposited data

How the results depend on the processing

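Scaling by library size alone moved the median RNA log2 fold change of all genes by -0.17, and 1543 genes were then higher and 4222 lower, against 2303 and 2282. The calls of the markers stayed at 1 higher and 0 lower. In H3K4me3 this scaling gave 945 higher and 862 lower, DESeq2 611 and 254, and the main scaling 1554 and 508. Leaving out 1 library gave 1228 to 2648 lower in RNA, and in H3K4me3 159 to 2070 higher and 123 to 694 lower. Over these, 0 to 1 markers were higher and 0 to 4 lower in RNA, and 0 to 2 lower in H3K4me3, where DESeq2 called 1. For the markers taken singly, 104 alternative RNA values and 86 H3K4me3 values kept their direction and side of the threshold, 8 and 7 turned sign, 3 and 5 lost a call, and 4 RNA values gained one, all without 48 h library 1.

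Signs turned for some markers that had passed no test. The RNA log2 fold change of Cyp17a1 was -0.15 by library size alone, -0.13 with the replicate block and -0.70 to 0.39 over left-out libraries. Left-out libraries gave -0.66 to 0.0012 for Acta2, -0.45 to 0.20 for Tagln and -0.24 to 0.72 for Pdgfrb. In H3K4me3 they gave -0.13 to 0.00063 for Myh11, -0.54 to 0.02 for Cnn1, -0.48 to 0.07 for Rgs5 and -0.06 to 0.15 for Pdgfrb, which was -0.0028 by library size alone. Except for the left-out libraries themselves, the cause was not tested. The background limit of H3K4me3 was 17.5 CPM at the 95th and 4.37 CPM at the 90th percentile.

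Replicate numbers are shared between groups, but same-numbered RNA libraries did not deviate together (r = -0.205, -0.143 and -0.111). For differently numbered RNA libraries r ran from -0.0655 to 0.175. Deviations within a group balance out, which constrains these values, so they do not decide on pairing. With 2 H3K4me3 libraries per group the deviations mirror each other. There r was 0.0349 for same-numbered libraries and -0.0349 for the others, which does not decide on pairing. Whether same-numbered libraries were collected together was not tested. With the replicate block, 1788 genes were higher and 1524 lower in RNA and 908 higher in H3K4me3, where 1 marker remained lower, and Acta2 had adjusted p = 0.0893. With so few libraries, low counts limit Insl3 in RNA and all markers in H3K4me3.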

Other observations

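Wt1 and Krt8 of the surface epithelium list were lower at 48 h in both assays. Of 10 genes of that list, 2 fell, 0 rose and 8 did not pass in RNA. The background was 15.8% of all genes tested lower, so 2 of 10 lies near it. In H3K4me3 5 fell, 0 rose and 5 did not pass, against 2.08% of all genes tested lower, and 1 fell without 0 h library 1. Wt1, a transcription factor of the surface epithelium that early granulosa cells also express, had 35.1, 23.0 and 27.8 CPM of RNA at 48 h, against 64.6, 63.2 and 51.9 CPM at 0 h (log2 fold change -1.07 ± 0.16, edgeR adjusted p = 0.00176). Its H3K4me3 was 84.2 and 80.6 CPM at 48 h, against 122.0 and 137.0 CPM at 0 h (-0.65 ± 0.07, adjusted p = 5.19e-09). Krt8, a keratin of simple epithelia, fell by 0.44 in RNA and 0.35 in H3K4me3 on the log2 scale (adjusted p = 0.00842 and 0.00317), the H3K4me3 call being lost without 0 h library 1 (adjusted p = 0.352). Upk3b, a surface protein of mesothelium, fell in H3K4me3 (-0.60 ± 0.18, adjusted p = 0.0281, and 0.595 without 0 h library 1), and in RNA its log2 fold change was 0.56 ± 0.21 (adjusted p = 0.0746, and as low as 0.0333 with DESeq2).

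Red blood cell and immune genes differed from the markers in their order of libraries. Of 7 red blood cell genes, the 4 globins were listed at 0 in every RNA library and the other 3 rose, against 16.0% of all genes tested. How reads of the globins were counted is not known here, so their 0 values are not read as absence of globin RNA. Alas2, the enzyme of erythroid heme synthesis, had 505.8, 153.1 and 648.9 CPM at 48 h, against 86.4, 65.3 and 123.7 CPM at 0 h (log2 fold change 2.25 ± 0.47, edgeR adjusted p = 0.00767), so library 3 was higher than library 1. Slc4a1, the anion exchanger of red cells, rose by a log2 fold change of 2.69 ± 0.44 (adjusted p = 0.00264). Of 12 immune genes 11 were tested and 0 passed in either direction, against 16.0% of all genes tested higher and 15.8% lower. Lyz2, the lysozyme of macrophages, had 141.0, 88.6 and 122.0 CPM at 48 h, against 121.4, 169.8 and 129.5 CPM at 0 h (adjusted p = 0.302). Csf1r, a receptor of macrophages, and C1qb, a complement subunit, did not pass either (adjusted p = 0.594 and 0.993).

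Of 9 oocyte genes tested, 3 fell with all libraries, 9 fell without 48 h library 1, and 0 or 1 fell without any other library. Over all genes tested, 15.8% fell with all libraries and 17.9% without 48 h library 1. Gdf9, a growth factor of oocytes, had 16.2, 7.72 and 6.27 CPM at 48 h, against 19.9, 20.2 and 19.8 CPM at 0 h (edgeR adjusted p = 0.032, 0.000273 without 48 h library 1, and up to 0.131 without any other library). Zp2, a protein of the oocyte coat, had 26.8, 9.48 and 10.1 CPM at 48 h, against 20.2, 19 and 18 CPM at 0 h (adjusted p = 0.526, and 0.000854 without library 1). Zp3, another coat protein, did not pass (adjusted p = 0.143), and Oosp1, an oocyte secreted protein, fell (-1.63 ± 0.42, adjusted p = 0.0193, and up to 0.0902 over the alternatives). Of 10 granulosa cell genes 7 rose and 1 fell in RNA, and 6 rose and 1 fell in H3K4me3 (3 and 0 without 0 h library 1). The background was 16.0% of all genes tested higher and 15.8% lower in RNA, and 6.35% and 2.08% in H3K4me3. Inhba, a subunit of activin and inhibin, had 10133.1, 11011.3 and 11720.3 CPM at 48 h, against 4005.3, 2661.6 and 3291.2 CPM at 0 h (log2 fold change 1.72 ± 0.17, adjusted p = 0.000338), with library 1 the lowest at 48 h. Inha, the inhibin alpha subunit, Fst, the activin-binding protein follistatin, and Cyp19a1, the aromatase, also rose (1.04 ± 0.13, 1.34 ± 0.16 and 1.98 ± 0.22, adjusted p = 0.00099, 0.000728 and 0.000629). Amh, the anti-Müllerian hormone, had 568.9, 230.7 and 237.0 CPM at 48 h, against 1114.7, 717.1 and 868.7 CPM at 0 h, with 48 h library 1 the highest at 48 h. It fell (-1.38 ± 0.34, adjusted p = 0.0158), its adjusted p being 0.000296 without 48 h library 1, while leaving out 0 h library 1 or 48 h library 2 or 3 ended the call (up to 0.0671).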
